A study of Mus musculus with 3 samples.

Results

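Distal intergenic H2A.Z regions were the regions of the H2A.Z WT list, called at a Poisson P threshold of 1e-9, whose midpoint lay in no annotated gene of any type and more than 10 kb from every gene. They numbered 21282 of 78359 H2A.Z WT regions (27.2%). Positions are on the mouse assembly mm9, with gene models of GENCODE vM1, which were of the same assembly. The remaining regions were divided by their midpoint into promoter regions within 2 kb of a protein-coding start site (18957), gene body regions (27850) and intergenic regions at 10 kb or less from a gene (10270).

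ChIP-Seq was performed on mouse embryonic stem cells (ESCs) with 3 libraries, 1 per group, so no value below has a replicate and no condition could be tested against another. The H2A.Z WT cells expressed a YFP-tagged H2A.Z transgene. The H2A.Z AP3 cells expressed a transgene in which 3 residues of the acidic patch had been replaced by those of H2A. Both transgenes were lentiviral, under a CMV promoter and an rtTA system induced with doxycycline at 1 µg/ml, in lines derived from KH2 ESCs and sorted for YFP. Both lines also carried a hairpin against the 3′ untranslated region of endogenous H2A.Z, and both were immunoprecipitated with an anti-GFP antibody, so the lists show the transgene product and not native H2A.Z. The H3K27me3 library carried the genotype label WT and was immunoprecipitated with an antibody to that mark, for which the labels and the methods name different suppliers. The strain label of every library was V6.5, a male 129SvJae by C57BL/6 line, whereas the protocol text described the transgenic lines as KH2. No library measured RNA, so the ESC identity of the cells could not be checked against marker genes here.

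H2A.Z stands in for histone H2A in a subset of nucleosomes, mostly beside start sites, but also at enhancers and insulators. The acidic patch is a negatively charged surface of the nucleosome at which other chromatin proteins dock. H3K27me3 is the mark laid down by Polycomb repressive complex 2, which in ESCs covers CpG-rich promoters of silent developmental regulators.

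The distal regions were rich in G and C and, for the most part, poor in CpG, and this held a long way from any gene. The following stretches are examples with different numbers of CpG. The first pair come from the members farthest from any gene. The other stretches come from the 3 longest members that overlapped both an H2A.Z AP3 and an H3K27me3 region. Each is the 30 bases with the most CpG dinucleotides inside the called member and within 150 bp of its midpoint, read on the plus strand of mm9, and capitals mark each CpG.
Member 863.8 kb from the nearest gene, chr14:85847276-85847305: tgtgtctgtggcaCGagtgcatgtcagtca
Member 852.9 kb from the nearest gene, chr3:42416176-42416205: actggctctttCGcagctcctagtgggatc
Member upstream of Mrps33, chr6:39822559-39822588: cCGgcCGtgagCGCGatcCGtccttCGgCG
Member upstream of Dio3, chr12:111426668-111426697: tCGggcctggaggcCGCGggCGagcaggCG
Member upstream of Shank2, chr7:151164757-151164786: gaggaacCGcCGcagggcCGccagggggCG

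The first pair held 1 CpG each in these 30 bases, and 3 and 1 CpG in the 300 bp centred on their midpoints, which reached past the ends of these short members. The G + C content of those 300 bp was nevertheless 57.7% and 58%. The stretches beside Mrps33, Dio3 and Shank2 held 7, 5 and 4 CpG, and the 300-bp windows around them held 17, 15 and 9. All 5 windows thus lay above 57% G + C and differed in how many of those bases formed CpG. Their ratios of observed to expected CpG were 0.1205 and 0.0405 in the first pair, 0.645 at Mrps33, 0.477 at Dio3 and 0.3115 at Shank2. The Shank2 value lay between the quartiles of all distal regions, given below, so that window was not CpG-rich for its class.

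Across all distal regions the median G + C content of the central 300 bp was 55%, close to the 56.3% of gene body regions and below the 61% of promoter regions. The ratio of observed to expected CpG had a median of 0.274 (quartiles 0.179 and 0.389), against 0.363 for all other regions and 0.621 for promoter regions. It was 0.280 in intergenic regions near genes and 0.309 in gene bodies, so a low ratio was shared by the classes outside promoters. Pooled over the whole length of the members the ratio was 0.311, against 0.167 in all distal sequence, so members were poor in CpG beside promoters and not beside their surroundings. CpG-rich windows were those with a ratio of at least 0.6 and at least 50% G + C, a common definition of a CpG island without its length rule. They made up 950 distal regions (4.46%, 95% Wilson interval 4.20 to 4.75%). The share was 7.52% in intergenic regions near genes, 8.08% in gene bodies and 52.4% in promoter regions. Wilson intervals here treat each region as independent, which neighbouring regions may not be, and cover counting error only.

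The G + C content peaked sharply at the distal regions. It was 56.5% in the 25-bp bin at the midpoint, 46.6% and 46.9% at 500 bp to either side, and 45.9% and 45.8% at 1 kb. The whole of distal sequence held 40.3% G + C, so the neighbourhood of a distal region was also richer in G + C than distal sequence as a whole. CpG followed the same shape, with 2.39 per 100 bp at the midpoint and 1.28 and 1.31 at 500 bp.

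**Figure D1:**
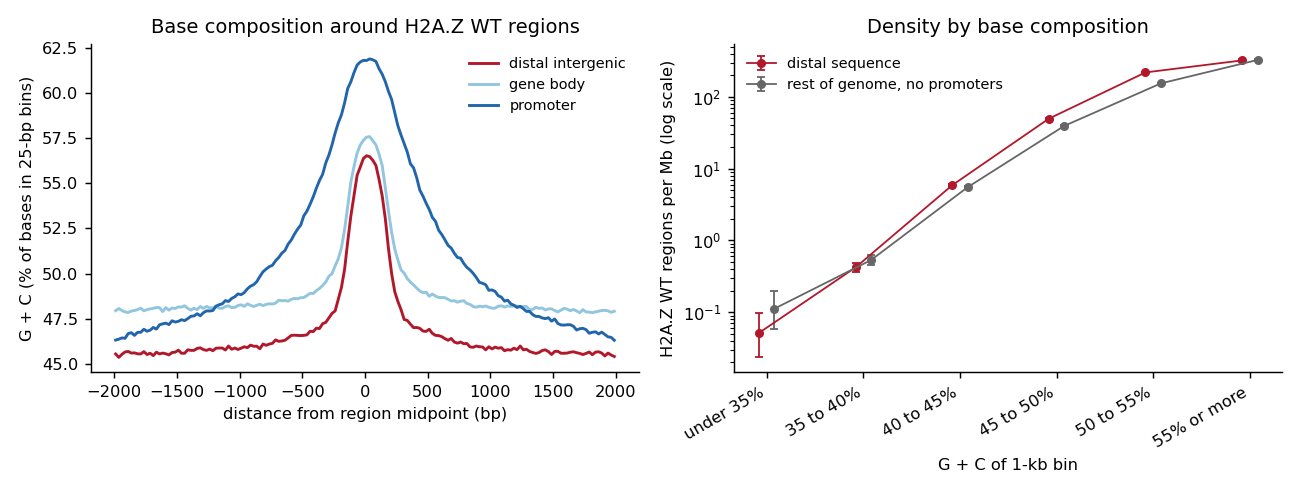
Left, mean G + C content (% of bases in 25-bp bins) against distance from the region midpoint (bp) for distal intergenic, gene body and promoter H2A.Z WT regions. The distal curve rises from about 46% in the flanks to 56.5% at the midpoint, and the promoter curve is higher and broader. Right, H2A.Z WT regions per Mb (log scale) against the G + C content of 1-kb bins, for distal sequence and for the rest of the genome without promoters, with exact 95% Poisson intervals. Both curves climb over the whole range of G + C, and the distal curve is the higher one from 45 to 55%.

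Distal regions were sparse for the sequence they had. Distal sequence made up 1149 Mb (45% of the genome without gaps), and it held 18.5 regions per Mb, compared with 40.6 per Mb in all other sequence, 28.5 in gene bodies and 169 in promoters. The ratio of 0.456 to the rest of the genome was below 1 on all 20 chromosomes. The regions covered 5.74 Mb, which was 0.499% of distal sequence and 20.3% of all bases covered by H2A.Z WT regions.

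The density depended steeply on base composition. When distal sequence was divided into bins of 1 kb, the 80.8% of bins with under 45% G + C held 11.1% of the members, at 2.52 per Mb. The bins with 45% G + C or more held 88.9% of the members, at 85.2 per Mb. From bins of 35 to 40% to bins of 50 to 55% G + C, the density rose from 0.421 to 218 per Mb.

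Between 45 and 55% G + C, distal sequence was the denser one at equal composition. In bins of 50 to 55% G + C it held 218 regions per Mb (exact 95% Poisson interval 214 to 223), compared with 154 (151 to 156) in gene bodies and intergenic sequence near genes, promoters left out. In bins of 45 to 50% the densities were 49.5 (48.5 to 50.6) and 39.3 (38.6 to 40.04) per Mb. In bins of 40 to 45% they were 5.86 (5.62 to 6.11) and 5.51 (5.29 to 5.73). The intervals overlapped in that range. They also overlapped in bins of 55% or more, at 321 (306 to 337) and 326 (318 to 333), and below 40% both had under 1 region per Mb. Bins of 50% G + C or more were 3.33% plus 0.453% of distal sequence, and 8.04% plus 1.79% of the other. How far the base composition of the sequenced fragments contributed to where regions were called was not tested, and the input library was not analysed here.

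The regions became rarer with distance from genes. The median distance to the nearest gene of any type was 32.7 kb (quartiles 18.3 and 66.3), the largest was 863.8 kb, and 3107 regions (14.6%) lay beyond 100 kb. Per Mb of sequence at that distance, there were 32.2 regions at 10 to 20 kb, 26.5 at 20 to 50 kb, 16.9 at 50 to 100 kb, 10.7 at 100 to 200 kb, 4.61 at 200 to 500 kb and 1.21 beyond 500 kb. Intergenic sequence at 10 kb or less from genes held 32.3 per Mb, so the first step outside the 10 kb boundary showed no drop. At the boundary itself, 807 regions lay 9 to 10 kb from a gene and 756 lay 10 to 11 kb from one, and both sets had a median length of 225 bp.

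**Figure D2:**
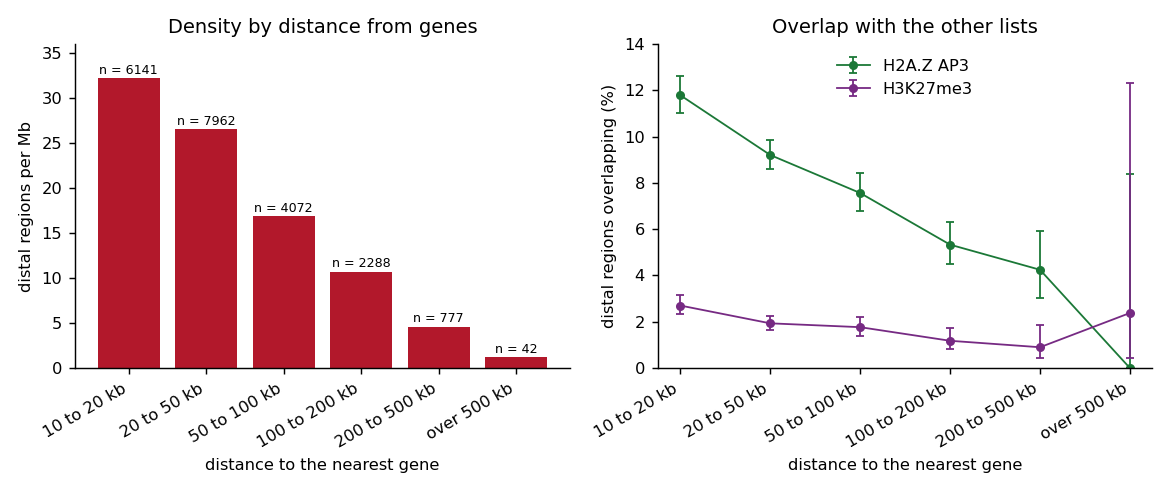
Left, distal H2A.Z WT regions per Mb of sequence by distance to the nearest gene, with the number of regions above each bar. The density falls in every step, from 32.2 to 1.21 per Mb. Right, share of distal regions (%) that overlap an H2A.Z AP3 or an H3K27me3 region in the same bins, with 95% Wilson intervals. The H2A.Z AP3 share falls from 11.8% to 4.25% at 200 to 500 kb, and the last bin holds 42 regions.

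The G + C content of the sequence fell along with the density, from 41.95% at 10 to 20 kb to 38.4% at 200 to 500 kb. Within bins of 45 to 50% G + C, the density was 55.6 per Mb at 10 to 20 kb (53.3 to 57.8), 57.1 at 20 to 50 kb (55.2 to 59.1), 47.9 at 50 to 100 kb (45.6 to 50.2), 40.7 at 100 to 200 kb (38.3 to 43.2) and 23.6 beyond 200 kb (21.2 to 26.1). At this fixed composition the density was level up to 50 kb from genes and lower beyond it.

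The members farthest from genes were short and stood alone. The 5 farthest lay 799.8 to 863.8 kb from any gene, measured 75 to 300 bp, had no other member within 5 kb, and overlapped neither H2A.Z AP3 nor H3K27me3. A pair of them, chr14:85847276-85847400 and chr14:85894151-85894425, lay in the same gene desert downstream of Pcdh17, a protocadherin of neuronal cell adhesion, whose start site was 1004 and 1051 kb away.

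Distal regions were short. Their median length was 200 bp (quartiles 125 and 325), compared with 275 bp (150 and 525) for all other regions and 400 bp (200 and 700) for promoter regions. The classes outside promoters were nearly as short, with medians of 225 bp in intergenic regions near genes (125 and 400) and in gene bodies (125 and 425). Lengths ran from 25 bp, a single bin, to 4450 bp, and 27 distal regions reached 2 kb, of 430 in the whole list. A second list of the same library was called at 1e-12. A region of that list lay in 15028 distal regions (70.6%, 70.0 to 71.2%), compared with 75.7% of all H2A.Z WT regions and 77.6% of the regions that were not distal. Within strata of equal length the Mantel-Haenszel odds ratio of holding one was 1.03 (0.973 to 1.09) against all other regions. It was 0.854 (0.784 to 0.929) against promoter regions, below 1 on 18 of 20 chromosomes, and 1.10 (1.03 to 1.17) against gene body regions.

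The 5 longest members lay 10.5 to 24.9 kb from the nearest gene. The longest, chr8:13221226-13225675, measured 4450 bp, lay 12.2 kb from Adprhl1, and was covered by H2A.Z AP3 regions over 1525 bp. The second, chr6:115953526-115957500, measured 3975 bp, lay 10.5 kb upstream of Plxnd1, a semaphorin receptor of vascular and neural guidance, and was covered by H2A.Z AP3 over 1500 bp. The third, chr4:135209301-135212750, measured 3450 bp and overlapped no H2A.Z AP3 region. None of the 5 longest overlapped H3K27me3.

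Most H2A.Z WT regions, distal or not, were seen with H2A.Z WT alone. Of the 21282 distal regions, 19048 (89.5%, 89.1 to 89.9%) overlapped neither other list, compared with 81.1% of all H2A.Z WT regions and 86.2% of gene body regions. Of the rest, 1807 overlapped only H2A.Z AP3, 314 only H3K27me3, and 113 both. An overlap was counted from 1 bp.

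H2A.Z AP3 regions overlapped 1920 distal regions (9.02%, 8.64 to 9.41%), compared with 12.9% of all H2A.Z WT regions. The share was 13.0% in intergenic regions near genes, 10.1% in gene bodies and 21.4% at promoters. Distal regions with H2A.Z AP3 had a median length of 375 bp, against 200 bp for those without, and the share rose with length from 1.56% at 25 to 100 bp to 33.8% at 825 bp or more. In the same length bins, all other regions went from 2.01% to 37.9%. Within length strata, the odds ratio of distal against all other regions was 0.845 (0.799 to 0.893), below 1 on all 20 chromosomes. Against intergenic regions near genes it was 0.744 (0.688 to 0.804), below 1 on 17 of 20 chromosomes. Against gene body regions it was 1.11 (1.04 to 1.19), below 1 on 10 of 20 chromosomes, and against promoter regions 0.686 (0.644 to 0.732). Among CpG-poor windows alone, the odds ratio against all other regions was nearer to even, at 0.906 (0.854 to 0.962). It was then below 1 on 15 of 20 chromosomes. At equal length, the distal regions thus overlapped the mutant's list less often than promoter regions and intergenic regions near genes. They did so slightly more often than gene body regions, with the chromosomes evenly split on the latter.

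**Figure D3:**
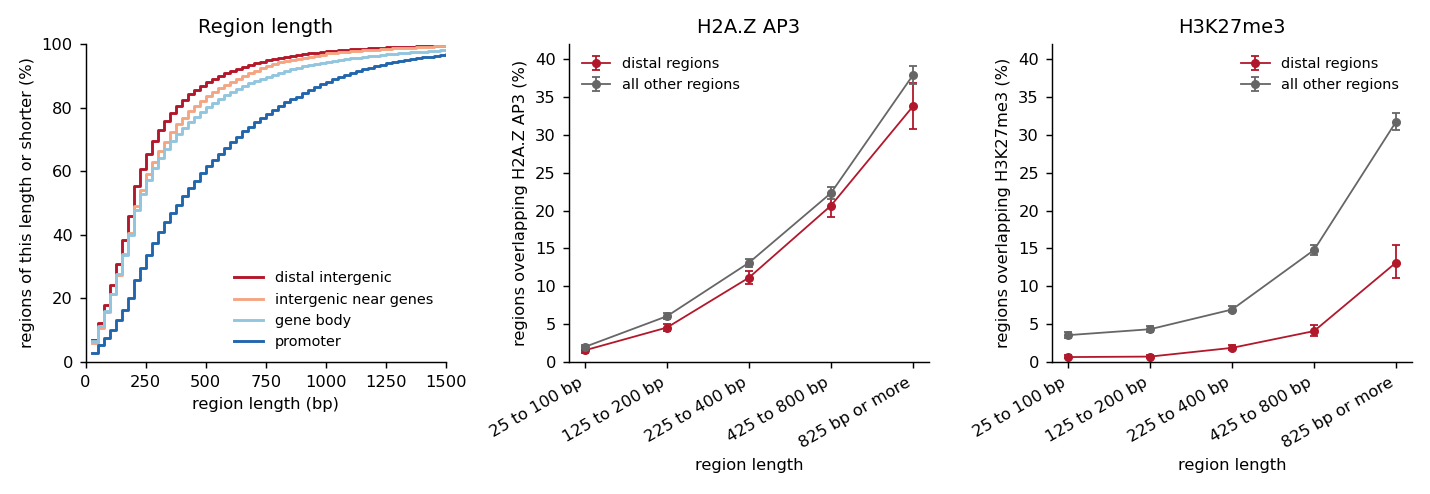
Left, cumulative share of regions (%) by region length (bp) for the 4 classes of H2A.Z WT regions, drawn up to 1500 bp. The distal curve rises first, with a median of 200 bp, and the promoter curve last, with a median of 400 bp. Centre and right, share of regions (%) that overlap an H2A.Z AP3 or an H3K27me3 region by length, for distal and for all other regions, with 95% Wilson intervals. The distal share of H3K27me3 stays below that of other regions in every bin (13.1% against 31.7% in the last), and the shares of H2A.Z AP3 lie closer together (33.8% against 37.9%).

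Around the distal regions, coverage by the mutant's list was highest at the midpoint. This profile shows only the surroundings of H2A.Z WT regions, and 66.0% of distal H2A.Z AP3 regions lay on one. An H2A.Z AP3 region covered the midpoint bin of 5.45% of distal regions, but the bins 500 bp to the left and right in 0.888% and 0.742%. The overlapping H2A.Z AP3 stretch measured 150 bp in the median, which was 45.6% of the member. Counting only members of which at least 50% was covered, the share fell to 4.32%, and counting H2A.Z AP3 regions within 1 kb it was 12.9%.

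The share with H2A.Z AP3 also differed along and between chromosomes. It fell with distance from genes, from 11.8% at 10 to 20 kb to 4.25% at 200 to 500 kb, while the median length fell from 200 to 175 bp. Beyond 500 kb it was 0 of 42, for which 3 counts of the total would be 7.14% and the Wilson upper limit was 8.38%. Chromosomes 6 and 8 stood apart, with 34.9 and 37.9 distal regions per Mb against 1.39 to 25.7 elsewhere. There, 14.5% of the distal regions overlapped H2A.Z AP3 (13.5 to 15.5%), compared with 7.60% (7.21 to 8.01%) on all other chromosomes. The regions outside distal sequence were likewise densest on chromosomes 6 and 8. The X chromosome held 111 distal regions in 79.9 Mb, and its ratio of distal density to that of the rest of the chromosome, 0.196, was the lowest of all. Whether its single copy in male cells contributed to the low count was not tested.

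**Figure D4:**
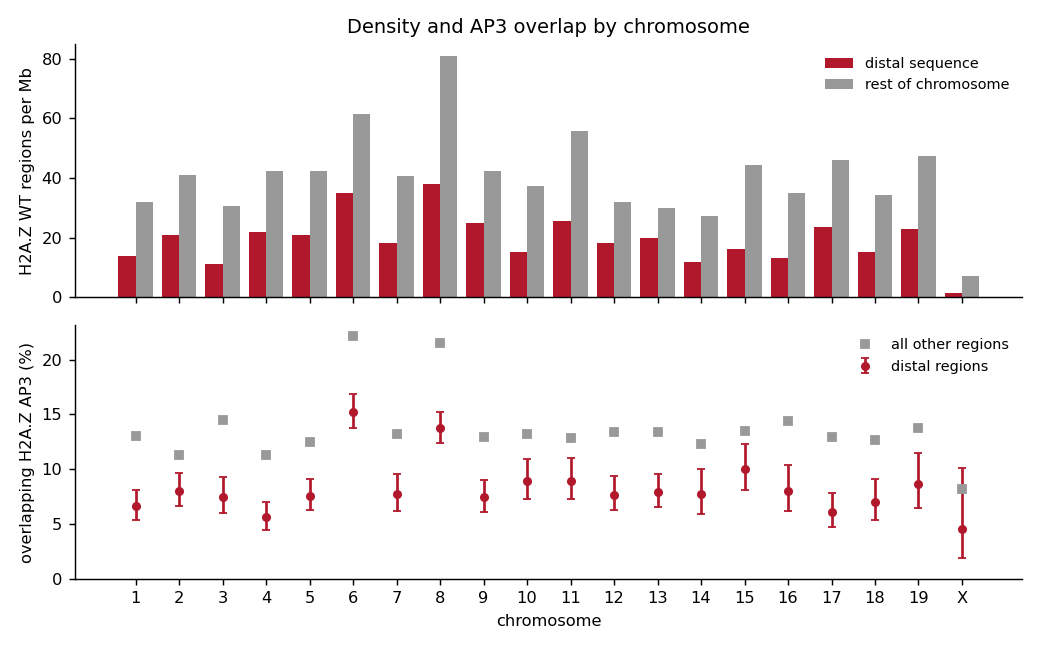
Top, H2A.Z WT regions per Mb on each chromosome in distal sequence and in the rest of the chromosome. Bottom, share of regions (%) that overlap an H2A.Z AP3 region, for distal regions with 95% Wilson intervals and for all other regions. Distal density is lower than that of the rest on every chromosome and highest on chromosomes 6 and 8 (34.9 and 37.9 per Mb), where the H2A.Z AP3 share is highest too.

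H3K27me3 was rare at distal regions. It overlapped 427 of them (2.01%, 1.83 to 2.20%), compared with 8.08% of all H2A.Z WT regions, 6.07% of intergenic regions near genes, 4.71% of gene body regions and 20.9% of promoter regions. The gap was also present at equal length. Within length strata the odds ratio against all other regions was 0.246 (0.222 to 0.273), below 1 on all 20 chromosomes, and against gene body regions it was 0.533 (0.476 to 0.596). Among CpG-poor windows alone the odds ratio against all other regions was 0.249 (0.219 to 0.283). The X chromosome had 0 of 111, for which 3 counts of the total would be 2.70%. With at least 50% of the member covered the distal share was 1.18%, and with H3K27me3 within 1 kb it was 3.58%.

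Distal regions with H3K27me3 were long and CpG-rich for their class. Their median length was 500 bp, against 200 bp without the mark, and CpG-rich windows made up 37.5% of them, against 3.79% of the others. Seen from the sequence, 16.8% of the CpG-rich distal regions overlapped H3K27me3 and 1.31% of the CpG-poor ones did. H2A.Z AP3 differed less between these windows, with 17.2% and 8.64%.

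Unlike H2A.Z AP3, H3K27me3 spread beyond the members that it overlapped. In those 427 members it covered the midpoint bin in 56.2%, the bins at 500 bp to either side in 37.0% and 36.8%, and the bins at 1 kb in 27.2% and 27.4%. In the 1920 members with H2A.Z AP3, that list covered the midpoint bin in 60.4%, the bins at 500 bp in 6.09% and 5.52%, and the bins at 1 kb in 2.40% and 2.34%.

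H2A.Z AP3 was more frequent at members with H3K27me3. Distal regions under H3K27me3 overlapped H2A.Z AP3 in 26.5% of cases (22.5 to 30.8%), the rest in 8.67% (8.29 to 9.05%). Part of this went with length, since the members with both had a median of 800 bp. Within length strata the odds ratio was 1.67 (1.32 to 2.13), and the same ratio in all other regions was 1.25 (1.17 to 1.34).

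The longest members with both marks were 5 regions of 1975 to 2325 bp. The first, chr6:39821376-39823700, lay 61.5 kb upstream of Mrps33, a mitochondrial ribosomal protein gene, with 1625 bp under H2A.Z AP3 and 1500 bp under H3K27me3. The second, chr12:111425701-111427775, lay 90.5 kb upstream of Dio3, the deiodinase that inactivates thyroid hormone and an imprinted gene, with 275 and 1875 bp. The third, chr7:151163626-151165650, lay 23.2 kb upstream of Shank2, a scaffold of excitatory synapses, with 125 and 250 bp. These are the members from which stretches are printed above. The longest with H3K27me3 and no H2A.Z AP3 was chr5:139295376-139297500, 2125 bp in length and 10.4 kb from Fam20c, a kinase of secreted proteins, with 950 bp under H3K27me3.

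More than 50% of the distal regions had a neighbour close by, which was less than in the rest of the list. Counting any H2A.Z WT region as a neighbour, 57.6% of distal regions (56.9 to 58.2%) had one within 5 kb, compared with 64.1% of all regions and 67.3% of gene body regions. The clusters described here were built from distal regions alone. Joined across gaps of up to 5 kb, 9400 members (44.2%) stood alone and 55.8% (55.2 to 56.5%) fell into 4056 clusters of at least 2. There were 2363 pairs, 1250 clusters of 3 to 4, 382 of 5 to 9, and 61 of 10 or more, which held 716 members. Clustered members were longer, from a median of 175 bp for single members to 275 bp in the largest clusters. The median CpG ratio was lower in larger clusters and fell from 0.281 to 0.242 over the same classes.

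Overlap with H2A.Z AP3 rose with the size of the cluster. It was 6.72% for single members, 9.25% in pairs, 11.6% in both middle classes and 14.1% (11.8 to 16.9%) in clusters of 10 or more. Within length strata the odds ratio of clustered against single members was 1.31 (1.18 to 1.45), and 1.21 (1.07 to 1.37) without chromosomes 6 and 8. For H3K27me3 the shares were 1.29% for single members and 2.48 to 2.67% in every class of clusters, with an odds ratio of 1.501 (1.21 to 1.86). Chromosomes 6 and 8 held 27 of the 61 largest clusters and chromosome 17 held 9.

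The largest cluster, chr6:88950351-89004300, held 31 members in 53950 bp and lay between Tpra1 and 4933427D06Rik, with members 41.9 to 91.8 kb from the nearest gene. Its members covered 22.7% of the span, 23 of them held a region at 1e-12, 2 overlapped H2A.Z AP3 and none H3K27me3. The second, chr6:88909426-88936300, lay next to it with 16 members in 26875 bp, of which 3 overlapped H2A.Z AP3. The next pair, chr8:12029826-12067650 and chr8:12154976-12179025, had 16 members each, with A230072I06Rik or 1700018L24Rik as nearest gene, and lay in the megabase that held more members than any other (135). The fifth, chr8:97686551-97719950, had 15 members near Kifc3, a kinesin motor gene, and 8 of these overlapped H2A.Z AP3 over 3975 bp in all. None of the 5 had a member with H3K27me3, and the share with H2A.Z AP3 ran from 2 of 31 to 8 of 15.

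**Figure D5:**
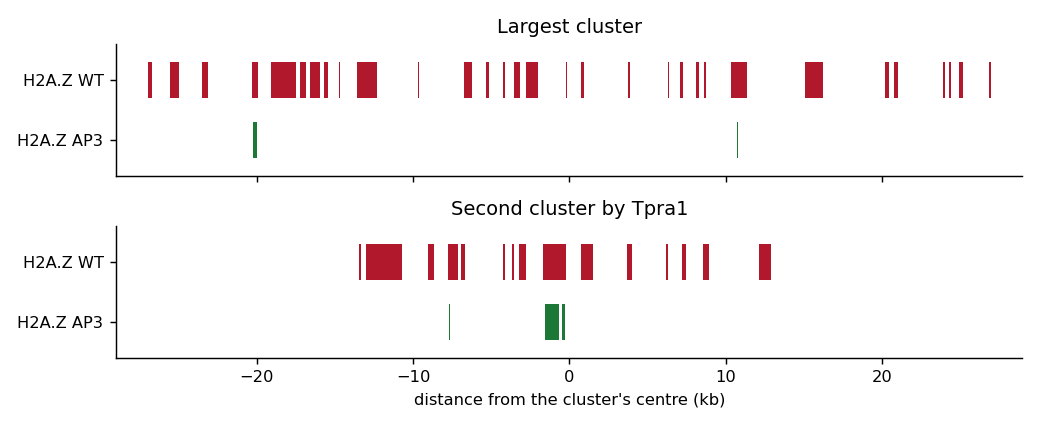
H2A.Z WT regions (top row of each panel) and H2A.Z AP3 regions (bottom row) against distance from the cluster's centre (kb) in the first and second largest clusters, which neighbour each other beside Tpra1. The first has 31 members with 2 under H2A.Z AP3, and the second 16 members with 3 under H2A.Z AP3. Boxes are drawn to scale.

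On the scale of megabases, members were uneven. They occurred in 2096 of 2649 windows of 1 Mb, and 303 windows (11.4%) held 50 percent of them. Between neighbouring members the median gap was 10162 bp, with 36.8% of gaps at 5 kb or less and 20.9% over 100 kb. Over the whole H2A.Z WT list regions lay closer together, with a median gap of 6675 bp, 43.9% of gaps at 5 kb or less and 6.54% over 100 kb.

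Genes were assigned to each member by the nearest start site of a protein-coding gene, which says nothing of which gene a region acts on. The median distance to that start was 56.6 kb (quartiles 27.8 and 120.6), and 63.1% of members lay upstream of it, a side on which the gene's own body takes up no sequence. Of 11346 genes with distal sequence nearest to them, 5216 (46.0%) had a member, and 488 had 10 or more. The gene nearest by any type was protein-coding for 66.5% of members, and a lincRNA, a long intergenic noncoding RNA, for 4.98%.

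The genes with most members included regulators of transcription and chromatin. Rybp, a subunit of variant Polycomb repressive complex 1, had 84 members at 13.0 to 275.6 kb from its start, 20 with H2A.Z AP3 and none with H3K27me3. Irx3, an Iroquois homeobox factor of neural and limb patterning, had 66 at 19.0 to 276 kb, 6 with H2A.Z AP3. Zfp703, a zinc finger repressor, had 62 with 9, and Zfhx3, a zinc finger homeobox factor, had 50 with 9. The kinase gene Vrk1 had 63 with 4, Ajap1, an adherens junction protein, had 48 with 1, and Arglu1, a cofactor of transcription and splicing, had 48 with 10. The uncharacterised genes A230072I06Rik, C130026L21Rik and 1700018L24Rik had 83, 49 and 48. Of these 10 genes, 7 lie on chromosomes 6 and 8, and together they had 5 members with H3K27me3.

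Genes of pluripotency had a member in 29 of 38 cases (76.3%, against 46.0% of all genes), with 220 members at 40.7 per Mb of their distal sequence, against 18.5 for all. Sox2, a core factor of the ESC state, had 30 members, all downstream, at 49.1 to 504.7 kb, 4 with H2A.Z AP3. Tbx3, a T-box factor of self-renewal, had 30 with 2, and Jarid2, a partner of Polycomb repressive complex 2 that also stands in the Polycomb list, had 28 with 5. H2A.Z AP3 overlapped 30 of the 220 (13.6%), compared with 9.02% of all distal members and 12.9% of all H2A.Z WT regions. Of those 30, Sall1 on chromosome 8 held 6, and no interval was computed for this share. H3K27me3 overlapped 2 of the 220 (0.909%, 0.250 to 3.25%), both at Tbx3, and this interval contains the 2.01% of all distal members.

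Developmental transcription factors had a member in 83 of 97 cases (85.6%), with 637 members at 27.1 per Mb. Irx3, Zfhx3 and Sall3, a zinc finger factor of limb and nerve development, led with 66, 50 and 32. H3K27me3 overlapped 40 of the 637 (6.28%, 4.64 to 8.44%), compared with 2.01% of all members, and H2A.Z AP3 overlapped 5.97%, compared with 9.02%. This list was the only one of the 5 in which H3K27me3 overlapped as many members as H2A.Z AP3 did (40 and 38).

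Morphogens and their antagonists had a member in 20 of 28 cases, with 109 members at 21.3 per Mb. Bmp7, a bone morphogenetic protein, had 21 members with 4 under H2A.Z AP3 and 2 under H3K27me3. Sfrp1, a secreted Wnt antagonist, had 19 with 4 and 1. Wnt7b, a Wnt ligand of lung and brain, had 15 in 54.98 kb of distal sequence, all upstream, with 5 under each list and 2 under both. H3K27me3 overlapped 8 of the 109 members (7.34%, 3.77 to 13.8%), compared with 2.01% of all distal members and 8.08% of all H2A.Z WT regions.

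Genes of H2A.Z deposition and of Polycomb complexes had a member in 14 of 26 cases, with 148 members in 1.53 Mb, of which Rybp and Jarid2 held 84 and 28. Nap1l1, a histone chaperone, followed with 7. Neural adhesion genes, which had the most distal sequence of the 5 lists, had a member in 41 of 59 cases, but these were 163 members in 58.4 Mb, or 2.79 per Mb. Odz3, a teneurin, had 27 of them with 6 under H2A.Z AP3 and 3 under H3K27me3. Cdh9, a classical cadherin, had 10 in 2664 kb and Cdh13, a membrane-anchored cadherin without a cytoplasmic tail, had 9 in 190.7 kb. Robo1, a receptor of axon guidance, also had 9, 1 of them under H3K27me3.

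The 427 distal members with H3K27me3 fell to 286 genes, the 1920 with H2A.Z AP3 to 1258, and all 21282 to 5216. Whether members with H3K27me3 were more or less concentrated on genes than other members was not tested. The genes with most H3K27me3 overlaps, chosen after their values were seen, were Tmem33 and Hoxc4 with 6 each, of 9 and 8 members. Nr2f2, a nuclear receptor of vessel and nerve development, had 5 of 11, Barx1, a homeobox factor of stomach and jaw, had 5 of 18, Nkd1, an inhibitor of Wnt signalling, had 5 of 12, Ppp1r15b, a phosphatase subunit of the stress response, had 5 of 10, and Tbca, a tubulin chaperone, had 5 of 14. There were 8 genes with 4 such members. Of these, Pou3f3, a POU factor of neural precursors, had 4 of 5, Cbx8, a chromobox subunit of Polycomb repressive complex 1, 4 of 5, Pax2, a paired box factor of kidney and eye, 4 of 8, and Tbx5, a T-box factor of heart and forelimb, 4 of 14, and the others were Gm10320, Calcoco1, Epb4.1l3 and Psd2. At Pou3f3 the 4 members lay in the group of 5 at 10.6 to 21.5 kb from the start, and at Hoxc4, a homeobox gene of trunk patterning, all 8 lay downstream of the nearest start at 24.4 to 59.4 kb. None of the members near Sox2, Rybp, Irx3 or Jarid2 overlapped H3K27me3.

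The other lists can be read from their own side. Of 14599 H2A.Z AP3 regions, 2952 (20.2%) had their midpoint in distal sequence, and 66.0% of these lay on an H2A.Z WT region (64.3 to 67.7%), compared with 73.0% of all H2A.Z AP3 regions. Of 16970 H3K27me3 regions, 1797 (10.6%) were distal, and 25.4% of these lay on an H2A.Z WT region (23.4 to 27.4%), compared with 38.2% of all. The distal regions that lay off H2A.Z WT held 50.3% G + C for H2A.Z AP3 and 50.5% for H3K27me3, against 54.9% and 54.2% for those on it.

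Short motifs of transcription factors were counted in the 300-bp windows on both strands, beside 32851 RefSeq promoter windows of the same length on GRCm38.p6. The octamer ATGCAAAT, bound by the pluripotency factor Oct4, occurred in 172 distal windows (0.808%, 0.697 to 0.938%), 0.580% of the windows of all other regions and 1.74% of the promoter windows. The Sox motif CATTGTT stood at 2.70% (2.49 to 2.92%), 1.99% and 3.78%. In the H2A.Z WT promoter regions the shares were lower, at 0.422% for the octamer and 1.48% for the Sox motif. Intergenic regions near genes and gene bodies held the octamer in 0.701% and 0.643%, and the Sox motif in 2.33% and 2.22%. The first of these octamer shares lay inside the distal interval. These A + T-rich motifs were thus more frequent in distal windows than in the other H2A.Z WT regions pooled, which were richer in G + C. For the octamer, distal regions were not set apart from intergenic regions near genes. Both motifs were less frequent than in RefSeq promoter windows. The composite of both, CATTGT followed after 1 base by ATGCAAA, occurred in 0 of 21282 distal windows, which allows up to 0.0141% (3 counts of the total), in 0 of 78359 windows of the whole H2A.Z WT list, and in 2 RefSeq promoter windows. A match this long was rare in every set counted, so the count of 0 cannot tell distal regions from the others.

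The Esrrb motif TCAAGGTCA stood at 0.451% in distal windows, 0.461% in other regions and 0.423% in promoters. The Klf motif GGGNGTGGC stood at 3.15%, 3.397% and 5.76%, the REST motif TTCAGCACC at 0.456%, 0.491% and 0.371%, the Myc motif CACGTG at 7.50%, 7.53% and 7.15%, and the YY1 motif AAGATGGCG at 0.667%, 0.619% and 1.40%. For these 5 the intervals of distal and other regions overlapped. The core AGNNGGCGC of the insulator protein CTCF stood at 3.03% (2.80 to 3.26%) in distal windows and 5.46% in other regions. Among the latter it stood at 3.55% in intergenic regions near genes, 3.51% in gene bodies and 9.35% in promoter regions. RefSeq promoter windows held it in 7.23%. The distal share was thus far below that of promoters and only slightly below those of the other classes. This core contains a CpG, and H3K27me3 overlapped 5.59% of the distal regions that held it, against 1.90% of the rest. A match of letters is not a bound site.

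Of the 172 members with the octamer, 9 lay nearest to a gene of the lists above, and 4 of these held it within the called region. Among all distal members, the lists held 1.03% (pluripotency), 2.99% (developmental factors), 0.512% (morphogens), 0.766% (neural adhesion) and 0.695% (H2A.Z deposition and Polycomb). The 9 are therefore not read as an excess near these genes. The 4 are printed as examples only, in 30 bases of mm9 on the strand of the motif, with the octamer in capitals.
Pax2, 36.2 kb upstream, minus strand, chr19:44794292-44794321: ggggcgtgcctATGCAAATtagacagtaat
Pax2, 81.3 kb upstream, minus strand, chr19:44749238-44749267: tgcgattccggATGCAAATagaatccgtga
Sfrp1, 50.5 kb upstream, minus strand, chr8:24471458-24471487: ccctgatagacATGCAAATaggaaaggggg
Barhl2, 286 kb downstream, plus strand, chr5:106601474-106601503: gtgacactgctATGCAAATgagggcctctt

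The members around these sites differed in the other lists. The first Pax2 member measured 1450 bp and overlapped neither. The second measured 150 bp and lay wholly under H3K27me3. The Sfrp1 member measured 400 bp, with 350 bp under H2A.Z AP3. The member of Barhl2, a homeobox factor of the nervous system, measured 200 bp and overlapped neither.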

How the data were processed

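Libraries were single-end Illumina ChIP-Seq. Per the methods and the submitters' processing notes, the authors aligned reads to mm9 with Bowtie 0.12.3, extended them to the fragment length, counted them in bins of 25 bp and kept bins that passed a Poisson threshold of 1e-9 and a minimal enrichment over input. The deposited lists hold only the start and end of each region, per library, with no height, p-value or read count, so depth is unknown, and a deeper library passes a fixed threshold at more places. Lists named 1e-12 have no description in the methods.

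Overlaps, distances, base composition and motifs were computed with NumPy 2.4.6 and SciPy 1.17.1 under Python 3.11.15, and Matplotlib 3.10.9 drew the figures. The procedures were tested on simulated data. Shares carry 95% Wilson intervals. Odds ratios are Mantel-Haenszel estimates over 10 length deciles. With 1 library per group no p-value was computed, and intervals cover counting error only. CpG, motif and G + C values used 300-bp windows, and G + C profiles, 1-kb bins and the octamer sites were added after the other results were seen. All GENCODE vM1 gene types defined distal sequence, and gene assignment used protein-coding start sites. The members named were the 5 longest, the 5 farthest, the 5 largest clusters and the 5 longest with each overlap. The genes named were the 10 with most members and the 3 of each list with most members, ties included. Genes named for H3K27me3 overlaps or octamer sites were chosen after their values were seen. For a count of 0, the share that 3 counts of the total would give is printed. The members and gene lists were chosen with earlier results of these data known.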

Additional observations from a re-analysis of the deposited data

Results flagged for a closer look

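In the list called at 1e-12, 1397 of 16742 distal H2A.Z WT regions (8.34%, 7.94 to 8.77%) shared no base with any region of the list called at 1e-9, although the threshold is stricter. They were picked out because no comparison above uses them. Over the whole list the share was 8.05%. Their median length was 125 bp, and 40 of them (2.86%) overlapped an H2A.Z AP3 region. The cause was not tested.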

How the results depend on the processing

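For 10 results, 79 values were recomputed under 11 alternatives, of which 34 stayed within the interval of the main value, or for the number of members within 1.5 times of it, and 45 moved further. No odds ratio crossed 1. In the order of density ratio to the rest of the genome, percent holding a 1e-12 region, percent with H2A.Z AP3, percent with H3K27me3, percent in clusters, and the odds ratios for H2A.Z AP3 and for H3K27me3, the values that moved were as follows. With all lists at 1e-12, they were 0.409, 8.17, 1.63 and 53.4, an H3K27me3 odds ratio of 0.207 and a median CpG ratio of 0.286. Beyond 5 kb from any gene, they were 0.482, 9.72, 2.35, 56.6 and an H2A.Z AP3 odds ratio of 0.909. Beyond 20 kb, they were 0.399, 69.5, 7.90, 1.72, 53.5 and an H2A.Z AP3 odds ratio of 0.750. With protein-coding genes only, they were 0.468, 9.43, 2.44, 57.0 and an H3K27me3 odds ratio of 0.285. For regions of at least 100 bp, they were 0.432, 85.0, 10.7, 2.29 and 52.6, a median length of 225 bp and a CpG ratio of 0.281. Without chromosomes 6 and 8, they were 0.443, 69.3, 7.60, 2.21 and 53.0, an H2A.Z AP3 odds ratio of 0.798 and a CpG ratio of 0.277. With at least 50% of the region covered, H2A.Z AP3 stood at 4.32%, H3K27me3 at 1.18% and the H3K27me3 odds ratio at 0.213. With the other list within 1 kb, the shares were 12.9% and 3.58% and the odds ratios 0.749 and 0.274. Cluster gaps of up to 2.5 kb and of up to 2.5 times 5 kb put 40.9% and 72.0% of members in clusters. Why these moved was not tested beyond the change in members that each rule makes.

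No paired analysis was possible because each group had 1 library. Region counts and lengths depend on depth, which the lists do not give.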
